A study of Oryza sativa Indica Group with 24 samples.

Results

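Genes specific to 7 days post-anthesis (DPA) in developing rice grains of both RD57 and RD6 were examined. They were chosen from the 26362 genes of the deposited expression table by their own levels. Levels were averaged as log2(FPKM + 0.5) over the 3 libraries of each cultivar and DPA, where FPKM is the number of sequenced fragments scaled to transcript length and library size. A gene was kept if its largest group mean lay between 5 and under 500 FPKM and its RD57 and RD6 levels differed by less than 1 on the log2 scale at each of the 4 DPA, and 11351 genes passed these limits. The score of a gene was its level at 7 DPA, averaged over the cultivars, minus its highest such level at 14, 21 or 28 DPA. A score of at least 1 was found in 343 genes, and the 200 with the highest scores are the members described here. The contrast of 7 DPA with later DPA, and the likeness of the cultivars, were therefore set by the choice of members and are given without tests.

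RNA was sequenced from RD57, a high-amylose indica cultivar, and from RD6, a waxy indica cultivar, at 7, 14, 21 and 28 DPA. Each of the 8 groups held 3 biological replicates, 24 libraries in all, and the plants were grown in pots in a net house under natural light. No treatment or introduced allele separates the groups, so a contrast of RD57 with RD6 covers all differences between these lines. The sample labels name the tissue as endosperm, whereas the extraction protocol speaks of whole grains, and no marker of either could be looked up, since the table holds assembly identifiers (XLOC) without gene names.

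The rice grain begins as a pericarp and nucellus around a young endosperm, which first divides as free nuclei, then forms cell walls and continues to divide before it fills with starch and storage protein. In the same early period the nucellus and the inner seed coat layers break down. Genes of cell division and of maternal tissue are in general most active early, and storage genes later. Of the 26362 identifiers, 0 matched the gene table available for a Japonica assembly, so no role can be given to a member, and no sequence is shown. In a sample of whole tissue, fewer cells of a type and less RNA per cell cannot be told apart.

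The members were moderately expressed genes at 7 DPA. Their median FPKM at 7, 14, 21 and 28 DPA was 13.1, 3.44, 1.44 and 1.08 in RD57 and 13.0, 3.55, 1.81 and 1.35 in RD6. At 7 DPA their mean levels ran between 3.17 and 326 FPKM in RD57 and between 2.57 and 274 FPKM in RD6. By the average of both cultivars at 7 DPA, 16 members lay under 5 FPKM, 57 between 5 and under 10 FPKM, 106 between 10 and under 50 FPKM, and 21 at 50 FPKM or more. The 10 most abundant members held 30.2% of the summed FPKM of all 200.

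One 7 DPA library stood apart from its group in these genes. The summed FPKM of the 200 members was 6564, 3676 and 4269 in RD57 replicates 1, 2 and 3 at 7 DPA, and 4111, 5193 and 5110 in the RD6 replicates. RD57 replicate 1 lay above the other RD57 libraries and above all RD6 libraries of that DPA. At 14 DPA the sums were 1087, 1429 and 1618 in RD57 and 1629, 1510 and 1202 in RD6. At 21 DPA they were 593, 571 and 641 in RD57 and 616, 896 and 766 in RD6, and at 28 DPA 580, 631 and 632 in RD57 and 579, 603 and 679 in RD6. All 6 libraries of 7 DPA were above all 18 later ones, and the libraries of 21 and 28 DPA overlapped.

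As a mean over 3 libraries, the summed FPKM at 7, 14, 21 and 28 DPA was 4836 ± 1525, 1378 ± 269, 602 ± 35.7 and 614 ± 30.2 in RD57 (SD, n = 3 each). In RD6 it was 4805 ± 602, 1447 ± 220, 759 ± 140 and 620 ± 52.3 (SD, n = 3 each). Against its own 7 DPA value, the sum at 14, 21 and 28 DPA came to 28.5%, 12.4% and 12.7% in RD57 and 30.1%, 15.8% and 12.9% in RD6. By these sums most of the decline lay between 7 and 14 DPA, and a smaller part between 14 and 21 DPA. The score required a level at 14 DPA well below that at 7 DPA, so this order follows from the choice of members.

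**Figure D1:**
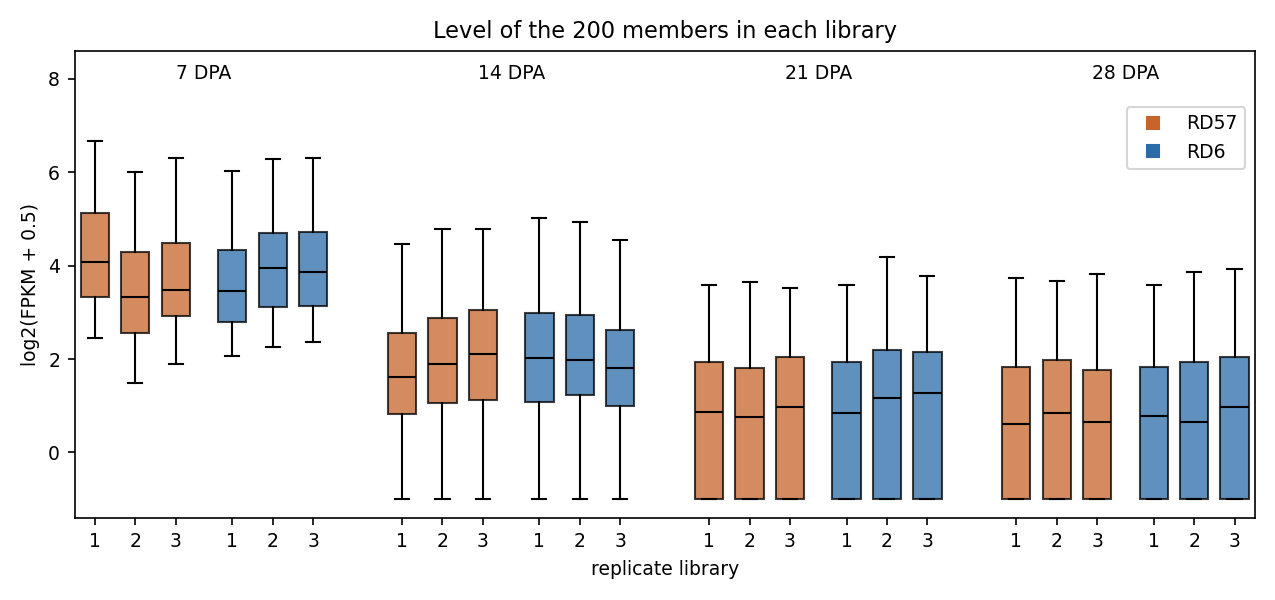
Levels of the 200 members in each of the 24 libraries, as log2(FPKM + 0.5), with RD57 left of RD6 at each DPA. Boxes show the quartiles and median over members and whiskers the 5th and 95th percentiles. The medians of the 7 DPA libraries lie above those of all later libraries, and the lower quartile reaches the value of a gene listed at 0 FPKM from 21 DPA on.

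As a share of the summed FPKM of all genes, the members held 0.314% to 0.662% in RD57 libraries and 0.440% to 0.620% in RD6 libraries at 7 DPA. At 14 DPA the share was 0.0651% to 0.0925% in RD57 and 0.105% to 0.123% in RD6, and the cultivars did not overlap. The sums of the members overlapped at that DPA, while the sum over all genes was 1670230 to 1748780 FPKM in RD57 libraries and 1143780 to 1327140 FPKM in RD6 libraries. The share is the sum of the members divided by the sum over all genes, and only the sum over all genes separated the cultivars. The mean sum of the members was 1378 FPKM in RD57 and 1447 FPKM in RD6. Why the sum over all genes was higher in RD57 was not tested.

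Within a cultivar, the 7 DPA libraries were set above the later ones gene by gene. All 3 libraries of 7 DPA were above all 9 later ones in 188 members in RD57 and in 195 members in RD6, against 14.2% and 15.5% of all genes. In 170 members all 6 libraries of 7 DPA were above all 18 later ones, against 5.17% of all genes. These counts follow from how the members were chosen.

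The same choice was repeated 6 times, each time without one 7 DPA library, and the 200 genes so chosen were then read in the library left out. This reading was added after the data had been seen. Above all 9 later libraries of the cultivar were 195 genes in RD57 replicate 1, 186 in replicate 2 and 193 in replicate 3, against 22.7%, 20.5% and 20.9% of all genes. In RD6 the counts were 192, 197 and 198 genes in replicates 1, 2 and 3, against 21.0%, 22.0% and 22.0% of all genes. Only the 7 DPA value was independent of the choice here, since all 9 later libraries it was set against were used to choose genes with low later levels.

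The score varied widely among the members. It was highest at 6.25, its median was 1.62 and its lowest value was 1.25, with 52 members at 2 or more, 22 at 3 or more and 6 at 4 or more. The limit of 200 fell in a dense part of the list, and 143 further genes with a score of at least 1 were left outside. The last member inside was XLOC_036535, with 15.3, 13.0 and 18 FPKM in RD57, against 21.7, 30.0 and 19.9 FPKM in RD6, at 7 DPA, and 7.38, 6.89 and 7.74 FPKM in RD57, against 7.55, 9.99 and 7.00 FPKM in RD6, at 14 DPA. The member before it, XLOC_008461, had 93.4, 29.8 and 55.1 FPKM in RD57, against 39.9, 75.2 and 70.9 FPKM in RD6, at 7 DPA, and 14.2, 15.3 and 27.1 FPKM in RD57, against 38.1, 30.9 and 24.2 FPKM in RD6, at 14 DPA. In XLOC_008461 the lowest 7 DPA library of RD57 and the highest 14 DPA library of RD57 were close to each other.

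The first gene left outside, XLOC_026279, had 83.0, 41.4 and 55.9 FPKM in RD57, against 58.3, 75.7 and 80.2 FPKM in RD6, at 7 DPA. At 14 DPA it had 24.8, 22.5 and 29.1 FPKM in RD57 and 34.5, 32.8 and 19.3 FPKM in RD6. The next outside, XLOC_022490, had 7.93, 4.54 and 6.81 FPKM in RD57, against 4.45, 3.79 and 5.04 FPKM in RD6, at 7 DPA, and 1.29, 1.41 and 2.28 FPKM in RD57, against 3.30, 2.22 and 1.59 FPKM in RD6, at 14 DPA. XLOC_022490 lay below the other 3 genes in every 7 DPA library, and XLOC_026279 overlapped with XLOC_008461 at that DPA.

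The members fell into classes by the DPA at which they were listed above 0. The authors excluded values below 0.5 FPKM, and the smallest value above 0 in the table is 0.50004 FPKM, so a gene listed at 0 may have had a lower signal. A gene was listed at 0 in all 3 libraries of a group or in none. With the limit on the difference between the cultivars, this means that each member was at 0 in both cultivars or in neither. At 7, 14, 21 and 28 DPA, 0, 22, 61 and 80 of the 200 members were at 0. Among the 11351 genes past the limits the shares at 0 were 0.793%, 0.423%, 1.03% and 3.96%, and among the members 0%, 11%, 30.5% and 40%. The choice of genes with low later levels favours these higher shares, which are a description.

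Above 0 at 7 DPA alone were 21 members, and these are all the genes with that pattern among the 11351. Their lowest score was 2.74, above the lowest score of a member, 1.25, so the choice took in all of them. Above 0 at 7 and 14 DPA only were 39 members, of 85 such genes. Above 0 at 7, 14 and 21 DPA were 20 members, of 322 such genes. The largest class, 119 members, was above 0 at all 4 DPA, as were 10823 of the genes past the limits. The remaining member, XLOC_041133, was above 0 at 7 and 28 DPA only.

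The classes differed in their level at 7 DPA as well. The 21 genes of 7 DPA alone had a median of 6.53 FPKM in RD57, against 6.83 FPKM in RD6, at that DPA, and 6 of them averaged 10 FPKM or more. The 39 genes lost after 14 DPA had medians of 7.76 FPKM in RD57, against 8.03 FPKM in RD6, at 7 DPA, and of 1.80 FPKM in RD57, against 1.76 FPKM in RD6, at 14 DPA. For the 20 genes lost after 21 DPA, the medians at 7, 14 and 21 DPA were 13.2, 5.64 and 0.935 FPKM in RD57 and 13.8, 4.12 and 1.74 FPKM in RD6. The 119 genes that stayed above 0 had medians at 7, 14, 21 and 28 DPA of 15.4, 4.59, 2.54 and 2.91 FPKM in RD57 and 16.9, 4.97, 3.30 and 2.76 FPKM in RD6. The genes that were lost early were thus, by their medians, also those with lower levels at 7 DPA, where the floor of 0.5 FPKM is nearer.

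**Figure D2:**
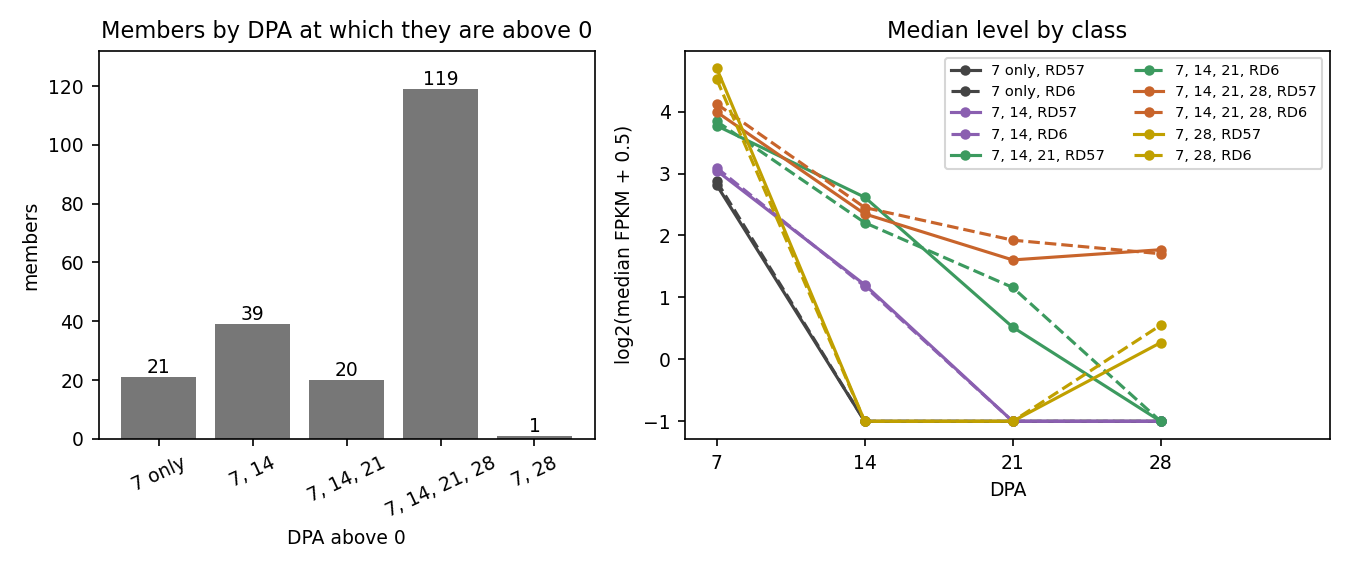
Left, the number of members in each class, named by the DPA at which they were above 0 FPKM: 21 at 7 only, 39 at 7 and 14, 20 at 7, 14 and 21, 119 at all 4 and 1 at 7 and 28. Right, the median level of each class as log2(median FPKM + 0.5) against DPA, with RD57 as solid and RD6 as dashed lines; the lowest value on the axis stands for genes listed at 0.

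Both members with the highest scores belonged to the class of 7 DPA alone. XLOC_006853, with a score of 6.25, had 276, 15.5 and 25.6 FPKM in RD57 replicates 1, 2 and 3 and 48.4, 21.9 and 23.7 FPKM in the RD6 replicates at 7 DPA, and was listed at 0 in all later libraries. XLOC_002886, with a score of 5.23, had 119, 5.36 and 6.42 FPKM in RD57, against 10.3, 18.4 and 43.9 FPKM in RD6, at 7 DPA, and was likewise at 0 later. In both genes RD57 replicate 1 was far above the other RD57 libraries. In XLOC_002886 the RD6 libraries were also spread widely.

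This library was the highest of its group in most members. RD57 replicate 1 held the highest of the 3 values at 7 DPA in 160 members (80%), against 41.5% of the genes past the limits. It was over 2 times both other libraries in 39 members, against 1.36% of the genes past the limits, and over 4 times both in 9. Of the 21 genes above 0 at 7 DPA alone, 12 were over 2 times and 5 over 4 times both other libraries, compared with 15 and 2 of the 119 genes above 0 at all 4 DPA. The other 7 DPA libraries were over 2 times both libraries beside them in at most 3 members, against 0.185% to 0.617% of the genes past the limits. For the limit of 4 times no such share was taken. RD57 replicate 1 was itself used to choose the members, which favours genes that were high in it, so these counts are a description.

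The replicate spread at 7 DPA was wider in the members than in the genes past the limits, in both cultivars. The median SD on the log2 scale was 0.45 in RD57 and 0.29 in RD6 over the members, and 0.23 in RD57 and 0.17 in RD6 over the genes past the limits. In the genes of 7 DPA alone it was 0.97 in RD57 and 0.45 in RD6. In the genes above 0 at all 4 DPA it was 0.43 in RD57 and 0.26 in RD6. The wider spread was not particular to 7 DPA. At 14 DPA the median SD was 0.34 in RD57 and 0.29 in RD6 over the members. Over the genes past the limits it was then 0.25 in RD57 and 0.19 in RD6. The members were chosen to be low at 14 DPA, with medians of 3.44 FPKM in RD57 and 3.55 FPKM in RD6. The part of the level and of the choice in the wider spread was not tested. In both cultivars the members had the larger median SD at 21 DPA and the smaller at 28 DPA, where many were at 0.

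The departures of the 7 DPA libraries ran opposite to those of genes specific to 14 DPA. For this, the 200 genes with the highest score at 14 DPA were chosen by the same rule, and each library's level was set against the mean of its group. Over the members the median departure in RD57 replicates 1, 2 and 3 was 0.42, -0.32 and -0.12 on the log2 scale, and over the 14 DPA genes it was -0.59, 0.48 and 0.07. In RD6 replicates 1, 2 and 3 it was -0.21, 0.10 and 0.12 over the members, and 0.21, -0.01 and -0.17 over the 14 DPA genes. The signs were opposite in 6 of 6 libraries at 7 DPA and in 3 of 6 at 14 DPA. The departures within a group are tied by its mean, so the libraries are not independent. Both sets of genes were also chosen on values of these DPA, and the -0.01 of RD6 replicate 2 is close to 0. At 21 and 28 DPA many members were at 0 in all libraries, so that the median departure was 0 in nearly every library and no such reading could be made.

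The median departures kept their signs where the library described had no part in the choice of genes. For members chosen without it, RD57 replicate 1 was above the average of the other RD57 libraries by a median of 0.47 on the log2 scale, and 160 of 200 genes were above it. RD57 replicate 2 had a median of -0.57, with 19 of 200 genes above, and RD57 replicate 3 of -0.25, with 49 above. RD6 replicate 1 had a median of -0.36, with 33 genes above, and RD6 replicates 2 and 3 had medians of 0.11 each, with 125 and 126 above. The median over the genes past the limits lay between -0.03 and 0.04 in all 6. The part of the stage of the sampled grains in these departures was not tested.

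**Figure D3:**
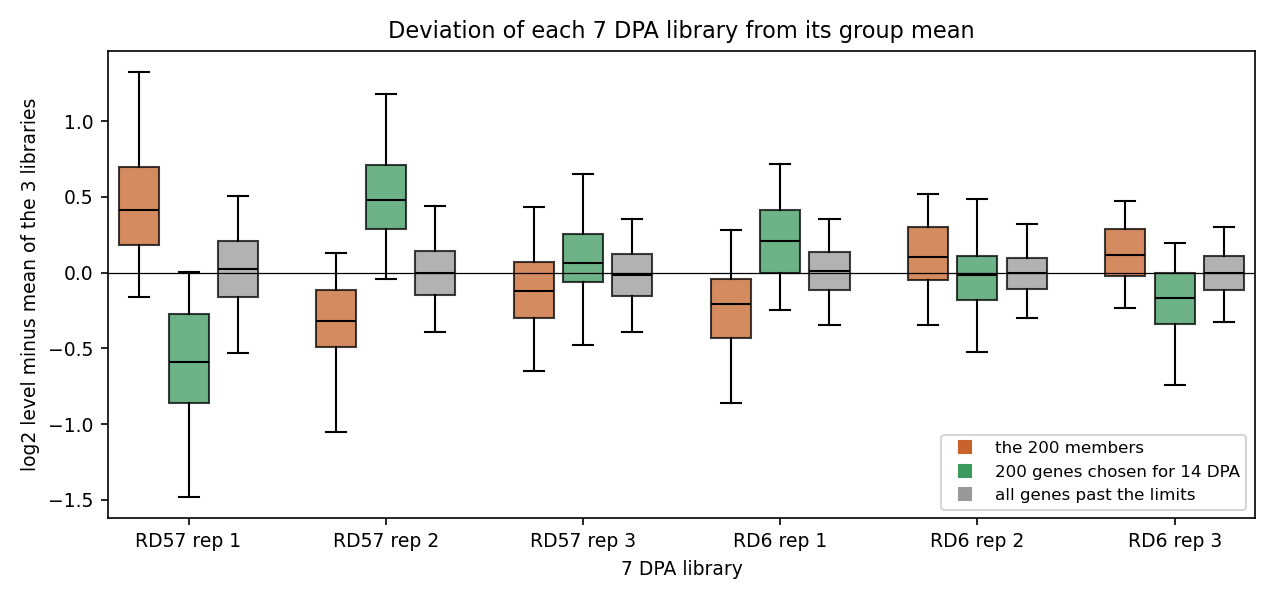
Departure of each 7 DPA library from the mean of its group of 3, in log2(FPKM + 0.5), for the 200 members, for the 200 genes chosen for 14 DPA by the same rule and for all genes past the limits. Boxes show quartiles and medians, and whiskers the 5th and 95th percentiles. The members lie above 0 and the 14 DPA genes below 0 in RD57 replicate 1, with medians of 0.42 and -0.59, and the order is reversed in RD57 replicate 2.

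Without RD57 replicate 1 of 7 DPA, 282 genes in place of 343 had a score of at least 1. The list of 200 then kept 166 of the members, and 14 genes in place of 21 were at 0 in all libraries from 14 DPA on. Leaving out any other library kept more of the members, up to 198 of 200.

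Among the later DPA, 14 DPA was highest or tied for highest in 172 members, 21 DPA in 7 and 28 DPA in 21. The 172 include the 21 members listed at 0 at all later DPA. The corresponding shares among the genes past the limits were 47.6%, 14.5% and 37.9%. The average of both cultivars fell or stayed level at every step in 135 members, and this was so in 121 members in RD57 and in 125 in RD6. The 21 members whose highest later DPA was 28 had medians at 7, 14, 21 and 28 DPA of 14.9, 3.26, 2.46 and 3.26 FPKM in RD57 and 15.7, 3.26, 2.76 and 4.44 FPKM in RD6. Their return at 28 DPA was small beside their level at 7 DPA.

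Between 7 and 14 DPA, most members fell by more than 1 on the log2 scale, which the choice of members fixes. The median log2 fold change of 14 over 7 DPA was -1.72 in RD57 and -1.69 in RD6. By limma with Benjamini-Hochberg adjustment over all genes, 59 members in RD57 and 64 in RD6 had an adjusted p of at most 0.05 and a fall of at least 2 on the log2 scale, against 2.66% and 2.88% of all genes. At a fall of at least 1 there were 183 members in RD57 and 187 in RD6, against 11.2% and 12% of all genes. These shares describe the members and test nothing.

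The change of 21 over 14 DPA was not itself scored, but the score used the highest of the later levels. Both DPA had to lie below 7 DPA. A member was called changed if its adjusted p in limma was at most 0.05 and it rose or fell by at least 2 on the log2 scale. In RD57, 39 members (19.5%) fell, against 11.9% of all genes. In RD6, 28 members (14%) fell, against 5.72% of all genes. In neither cultivar did a member rise by this rule, against 5.01% of all genes in RD57 and 3.79% in RD6. The choice of members held 14, 21 and 28 DPA below 7 DPA and so left little room for a rise. The levels at 14 and 21 DPA were also used in the choice, so the shares of falls are a description. Nothing is read from them against all genes, or from the lack of rises. The same applies to a limit of 1 and to the step of 28 over 21 DPA. At an unadjusted p under 0.05 in limma, 1 member in RD57 and 3 members in RD6 were higher at 21 DPA.

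Of the called members, 25 were called in both cultivars, 14 in RD57 alone and 3 in RD6 alone. The limit on the difference between the cultivars at every DPA favours such sharing, so it is given as a description, and whether the size of the fall differed between the cultivars was not tested. Among the called falls, 24 of 39 in RD57 and 22 of 28 in RD6 ended at 0 FPKM, which leaves 15 members in RD57 and 6 in RD6 that fell and remained above 0. With a fold change of at least 1, 95 members in RD57 and 79 in RD6 fell, against 27.3% and 21.5% of all genes. By the same limit 0 members in RD57 and 1 in RD6 rose, against 18.8% and 16.6% of all genes. The median log2 fold change of the members was -0.86 in RD57 and -0.76 in RD6, and that of all genes was 0 in each. Genes listed at 0 at both DPA count as a change of 0 in these medians.

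The step of 28 over 21 DPA gave few calls. In RD57, 4 members (2%) fell, against 3.53% of all genes, and in RD6 12 members (6%) fell, against 8.43% of all genes. These shares were no higher than those of all genes, and 0 members rose, against 0.368% of all genes in RD57 and 0.269% in RD6. At an unadjusted p under 0.05 in limma, 8 members in RD57 and 9 in RD6 were higher at 28 DPA. The 4 members called in RD57 were all called in RD6. All 4 called falls in RD57 and 11 of 12 in RD6 ended at 0 FPKM. The median log2 fold change of the members was 0 in both cultivars, which rests on 60 members listed at 0 at both DPA. By the average of both cultivars, 82 members were lower and 58 higher at 28 than at 21 DPA. With a limit of 1, 19 members in RD57 and 26 in RD6 fell, against 9.72% and 19.2% of all genes, and 0 members in RD57 and 1 in RD6 rose, against 2.79% and 2.56% of all genes.

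**Figure D4:**
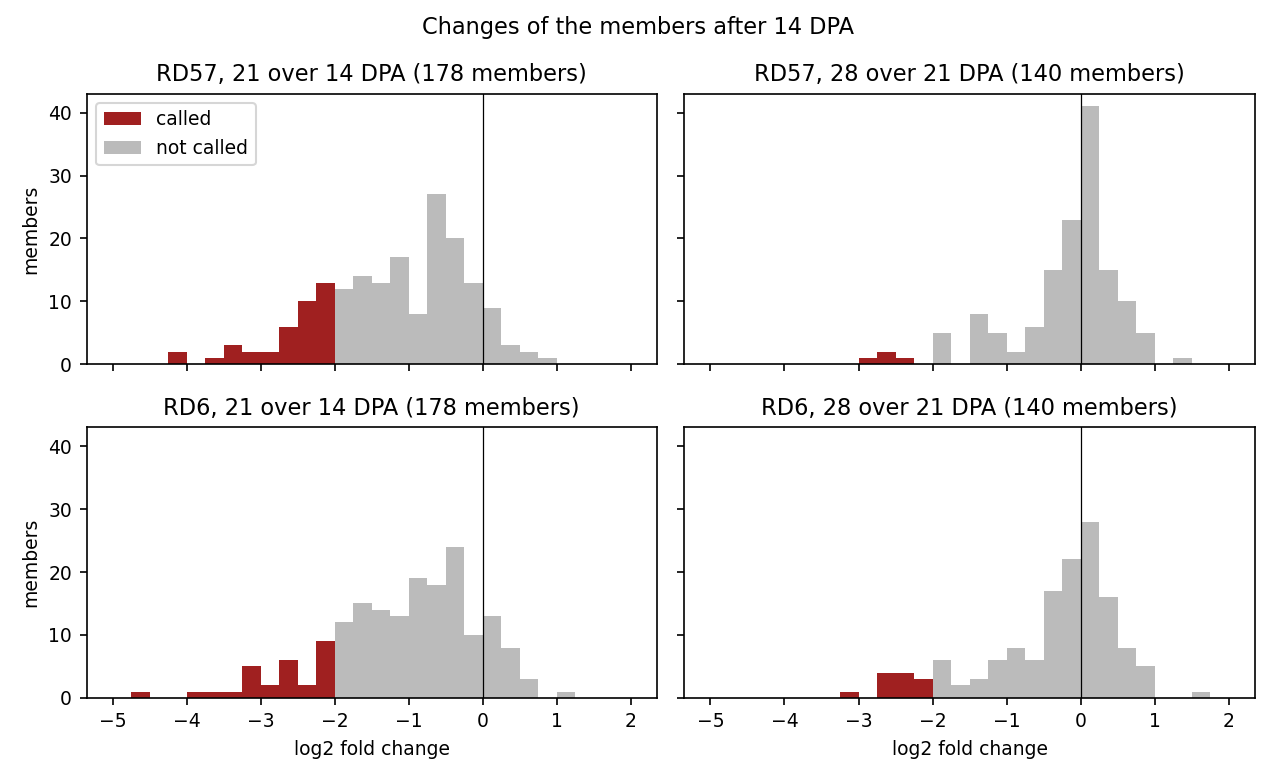
Number of members by log2 fold change, with RD57 in the upper and RD6 in the lower panels, for 21 over 14 DPA (left, the 178 members above 0 at either DPA) and 28 over 21 DPA (right, 140 members). Red bars are members called by limma, 39 in RD57 and 28 in RD6 on the left and 4 in RD57 and 12 in RD6 on the right. The left panels lean below 0, whereas the right panels are centred near 0.

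The 2 largest falls between 14 and 21 DPA by the mean over both cultivars, among members called in both, ended at 0 FPKM. XLOC_028777 had 47.7, 38.9 and 34.0 FPKM in RD57, against 18.5, 30.5 and 32.9 FPKM in RD6, at 7 DPA. At 14 DPA it had 8.36, 5.99 and 11 FPKM in RD57 and 14.4, 13.1 and 9.07 FPKM in RD6, and at 21 and 28 DPA it was listed at 0. RD57 libraries were above those of RD6 at 7 DPA, and the cultivars overlapped at 14 DPA. The limma adjusted p of the fall was 6.21e-12 in RD57 and 1.03e-12 in RD6, and no fold is given against 0. Groups listed at 0 had no spread, which narrows the SE in the fit of all 24 libraries. With only the 6 libraries of the contrast the limma adjusted p was 9.97e-05 in RD57 and 5.94e-05 in RD6. The later group of that fit was also at 0, so the narrowing was not removed there. The same holds for the other falls to 0 given below.

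XLOC_010805 followed the same course with a steeper first step. It had 68.1, 66.4 and 59.4 FPKM in RD57, against 61.5, 46.7 and 31.8 FPKM in RD6, at 7 DPA. At 14 DPA it had 4.22, 13.3 and 10.9 FPKM in RD57 and 6.48, 10.4 and 5.57 FPKM in RD6, and it was at 0 at 21 and 28 DPA. The adjusted p of limma for 21 over 14 DPA was 4.78e-10 in RD57 and 1.35e-09 in RD6. With only the 6 libraries of the contrast it was 0.000751 in RD57 and 0.000156 in RD6. At 7 and at 14 DPA the cultivars overlapped.

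Among members called in both cultivars, XLOC_025792 and XLOC_034094 had the largest falls between 21 and 28 DPA by the mean log2 fold change over both cultivars. XLOC_025792 had 198, 97.6 and 94.5 FPKM in RD57, against 83.7, 144 and 161 FPKM in RD6, at 7 DPA, and 33.7, 16.5 and 21.2 FPKM in RD57, against 25.8, 33.0 and 22.8 FPKM in RD6, at 14 DPA. At 21 DPA it had 2.22, 2.96 and 5.72 FPKM in RD57 and 2.46, 1.61 and 5.26 FPKM in RD6, and at 28 DPA it was at 0. Its log2 fold change of 21 over 14 DPA was -2.59 ± 0.37 in RD57 and -3.05 ± 0.37 in RD6 (SE), with limma adjusted p of 5.27e-06 and 9.68e-07. For the loss at 28 DPA the adjusted p of limma was 4.29e-06 in RD57 and 6.24e-06 in RD6. With only the 6 libraries of that contrast it was 0.00129 in RD57 and 0.00347 in RD6.

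XLOC_034094 had little spread at 7 DPA, with 47.5, 51.7 and 46.3 FPKM in RD57 and 47.2, 49.5 and 46.3 FPKM in RD6. At 14 DPA it had 21.0, 26.9 and 33.9 FPKM in RD57 and 17.7, 14.9 and 11.3 FPKM in RD6, where the cultivars did not overlap. At 21 DPA it had 3.34, 1.38 and 2.74 FPKM in RD57 and 1.69, 6.62 and 3.94 FPKM in RD6, and at 28 DPA it was at 0. The log2 fold change of 21 over 14 DPA was -3.25 ± 0.31 in RD57 and -1.86 ± 0.31 in RD6 (SE), with limma adjusted p of 2.62e-08 and 4.09e-05. For the loss at 28 DPA the adjusted p of limma was 3.31e-06 in RD57 and 1.19e-07 in RD6. With only the 6 libraries of that contrast it was 0.00143 in RD57 and 0.00422 in RD6. In this gene RD57 replicate 1 did not stand out at 7 DPA.

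The most abundant member, XLOC_007088, declined in steps and remained expressed. It had 368, 299 and 311 FPKM in RD57, against 269, 266 and 288 FPKM in RD6, at 7 DPA, and 84.3, 142 and 162 FPKM in RD57, against 131, 119 and 74.6 FPKM in RD6, at 14 DPA. At 21 DPA it had 24.9, 28.5 and 42.2 FPKM in RD57 and 39.9, 89.7 and 47.5 FPKM in RD6, and at 28 DPA 25.9, 23.6 and 22.8 FPKM in RD57 and 26.3, 22.6 and 33.8 FPKM in RD6. The cultivars overlapped from 14 to 28 DPA and not at 7 DPA, where RD57 was higher. Its log2 fold change of 21 over 14 DPA was -1.99 ± 0.28 in RD57 and -0.92 ± 0.28 in RD6 (SE), with limma adjusted p of 4.7e-06 and 0.00955. For 28 over 21 DPA it was -0.36 ± 0.28 in RD57 and -1.01 ± 0.28 in RD6 (SE), with limma adjusted p of 0.547 and 0.00872, and whether the step differed between the cultivars was not tested. None of these steps reached the limit of 2 on the log2 scale.

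XLOC_026290 was higher at 21 than at 14 DPA, by adjusted p alone, in both cultivars. It had 13.0, 8.14 and 8.83 FPKM in RD57, against 15.2, 14.9 and 18.6 FPKM in RD6, at 7 DPA, and 1.45, 2.12 and 2.83 FPKM in RD57, against 1.84, 2.35 and 2.11 FPKM in RD6, at 14 DPA. At 21 DPA it had 4.50, 4.18 and 3.29 FPKM in RD57 and 6.57, 5.85 and 3.55 FPKM in RD6, and at 28 DPA 2.15, 5.66 and 2.68 FPKM in RD57 and 5.96, 7.26 and 4.44 FPKM in RD6. All libraries of 21 DPA were above those of 14 DPA in each cultivar. The log2 fold change was 0.79 ± 0.29 in RD57 and 1.13 ± 0.29 in RD6 (SE), with limma adjusted p of 0.0226 and 0.00249. In RD57 this did not hold in limma without 14 DPA replicate 1 (adjusted p = 0.113), without 21 DPA replicate 1 (0.074) or 2 (0.0588), or with only the 6 libraries of the contrast (0.0613), whereas in RD6 the adjusted p stayed at or below 0.0223. No member rose between 21 and 28 DPA in both cultivars by adjusted p.

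XLOC_041133, named after its values were seen, was the 1 member that returned above 0. It had 59.0, 5.14 and 12.2 FPKM in RD57, against 12.2, 26.1 and 29.0 FPKM in RD6, at 7 DPA and was listed at 0 at 14 and 21 DPA. At 28 DPA it had 0.521, 0.722 and 0.875 FPKM in RD57 and 0.885, 1.05 and 0.965 FPKM in RD6, close to the floor of 0.5 FPKM. The limma adjusted p of 28 over 21 DPA was 0.111 in RD57 and 0.0227 in RD6. The 21 DPA groups were at 0 and had no spread, which narrows the SE. The last RD6 value at 28 DPA equals the group mean of 0.965 FPKM as printed, as a value filled in from the others would. At 7 DPA its RD57 replicate 1 was again far above the other RD57 libraries.

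**Figure D5:**
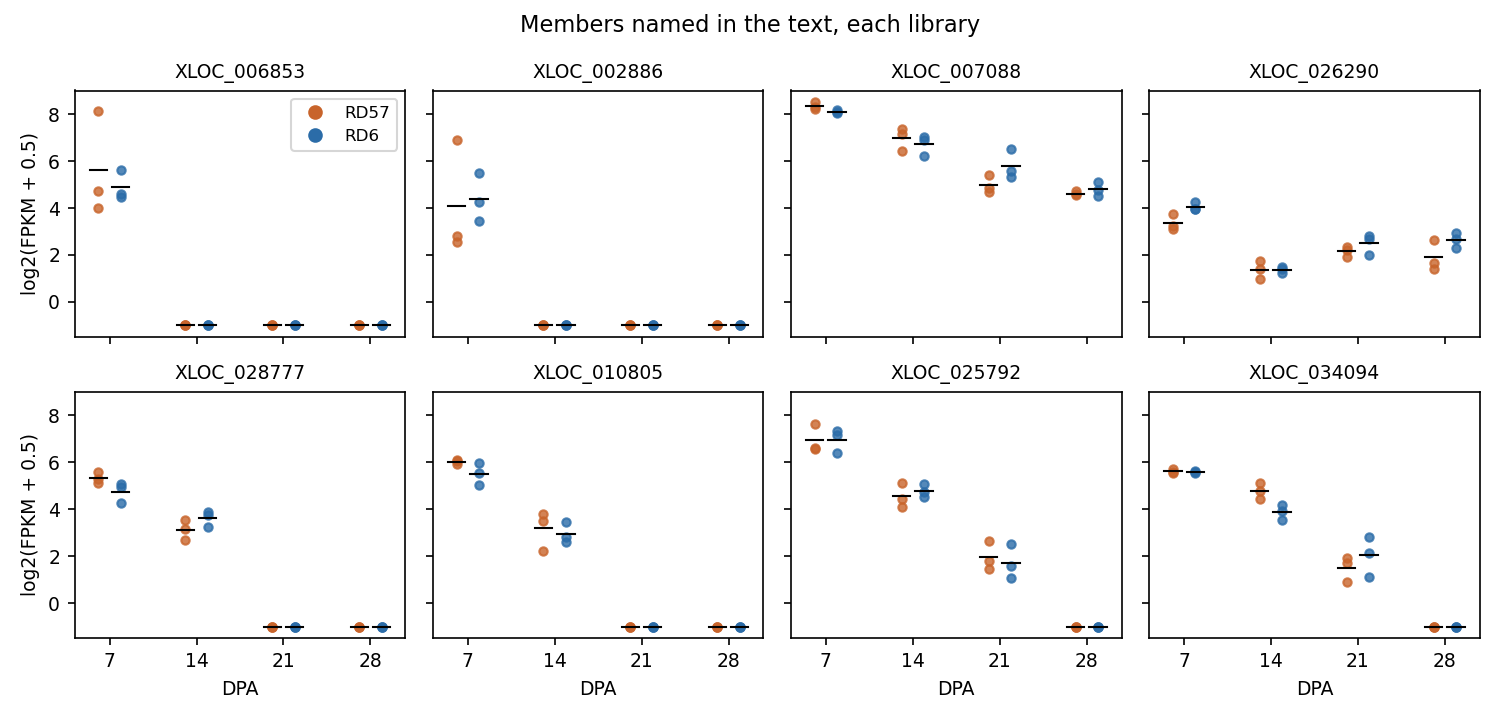
Levels of 8 members in each library as log2(FPKM + 0.5) against DPA, with RD57 left of RD6 at each DPA; bars are the means of 3 libraries, and the lowest value stands for 0 FPKM. XLOC_006853 and XLOC_002886 are at 0 from 14 DPA on, XLOC_028777 and XLOC_010805 from 21 DPA on, and XLOC_025792 and XLOC_034094 at 28 DPA. XLOC_007088 declines and stays above 0, and XLOC_026290 is higher at 21 than at 14 DPA.

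Between the cultivars, differences were limited to under 1 on the log2 scale by the choice of members. RD57 was higher in 85 members and lower in 115 at 7 DPA, and higher in 76 and lower in 102 at 14 DPA. At 21 DPA it was higher in 40 members and lower in 99, and at 28 DPA higher in 48 and lower in 72. Over the members above 0, the median difference of RD57 minus RD6 at 7, 14, 21 and 28 DPA was -0.10, -0.12, -0.29 and -0.12 on the log2 scale. Over the genes past the limits it was -0.01, -0.00, 0.06 and 0.05. At 21 DPA, where the members lay furthest below in RD57, 29 members in RD57 and 36 in RD6 had a mean of 5 FPKM or more.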

How the data were processed

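Strand-specific mRNA libraries were made from 3 replicates of each cultivar and DPA. The authors trimmed reads with Fastp and Trimmomatic, removed rRNA, aligned to an indica assembly with HISAT2, and obtained FPKM with Cufflinks and Cuffnorm. In the deposited FPKM, values below 0.5 were excluded, a gene needed 2 replicates, and the average of the replicates stood in for a missing one, which narrows the spread. The reads behind a value are unknown, so precision rests on 3 replicates and no counting interval is given. Division of reads between similar gene copies was not examined.

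Values were taken as log2(FPKM + 0.5) in R 4.3.3. The limma 3.58.1 model had 8 group means over 24 libraries, with a trended prior and Benjamini-Hochberg adjustment over 26362 genes. The edgeR model of the study needs counts and was not applied. The model was tested on simulated data. Replicate libraries correlated at 0.970 to 0.991.

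Identifiers printed are those with the highest score, those beside the limit of 200, the most abundant at 7 DPA, and the largest changes of each later step. The members and all lists were chosen with earlier results of these data known. Alternatives were other pseudocounts, filters, scalings, model forms and libraries left out. Python 3.11.15 with pandas 2.3.3 served for the selection of members and matplotlib 3.10.9 for the figures.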

Additional observations from a re-analysis of the deposited data

How the results depend on the processing

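The number of members called depended on the treatment of low values. With a pseudocount of 0.1, 60 members in RD57 and 49 in RD6 were called for 21 over 14 DPA, and 21 in RD57 and 22 in RD6 for 28 over 21 DPA. With a pseudocount of 1 the numbers were 16 in RD57 and 12 in RD6, and then 1 in RD57 and 2 in RD6. With a limit of 1 on the log2 scale they were 95 in RD57 and 80 in RD6, and then 19 in RD57 and 27 in RD6. Among genes above 0 in all 6 libraries of the contrast they were 15 in RD57 and 6 in RD6, and then 0 in RD57 and 1 in RD6, since falls to 0 were not tested there. No result reversed. With 1 library left out, the calls for 21 over 14 DPA ranged from 34 to 45 in RD57 and from 26 to 32 in RD6, and for 28 over 21 DPA from 4 to 7 in RD57 and from 9 to 18 in RD6. The 7 was reached without RD57 21 DPA replicate 2. Genes with a score of at least 1 ranged from 282 to 400, and members at 0 from 14 DPA on from 14 to 25. Without a limit on the largest group mean there were 727 such genes, and 160 of the 200 chosen were at 0 from 14 DPA on.

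Libraries with the same replicate number did not pair. Over 15210 genes, 16 of 84 same-number pairs correlated above 0.1, with a median of 0.00389. The replicate block gave the same numbers of calls, 39 in RD57 and 28 in RD6 for 21 over 14 DPA and 4 in RD57 and 12 in RD6 for 28 over 21 DPA. The floor of 0.5 FPKM limits what can be said of low levels, and the unknown depth behind each value limits its precision.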
